A study of Mus musculus with 405 samples.

Results

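NMDA receptor subunits are encoded by a small gene family, of which 6 members were looked for by symbol in the deposited tables: Grin1, Grin2a, Grin2b, Grin2c, Grin2d and Grin3a. The chemical screen listed 5 of the 6 among 13304 genes, with Grin2c not among its rows. The raw count table for pyraclostrobin listed 6 of 6 among 23893 genes. The study asked which chemicals used in the environment shift gene expression in cortical neurons, and it profiled polyadenylated RNA by sequencing. Neuron-enriched cultures came from cortices of embryos of C57BL/6J mothers and CAST/EiJ fathers, labelled embryonic day 15. Every group shared this hybrid genotype and the drugs 5-fluoro-2′-deoxyuridine and uridine 5′-triphosphate, given at day 3 in vitro against dividing cells. Cultures then received vehicle or a chemical on day 7 for 24 h. The screen held 49 vehicle libraries and 344 libraries of 297 chemicals, 257 of which were given at 10 µM. The topoisomerase inhibitor topotecan, the positive control, had 32 libraries at 0.3 µM, and 282 chemicals had 1 library. The labels do not say which libraries came from separate litters or culture days, so p-values measure the spread between libraries. Comparisons of sets of chemicals used the median per chemical, so their p-values measure the spread between chemicals.

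NMDA receptors are glutamate-gated channels that admit calcium when glutamate and the co-agonist glycine or D-serine bind while the membrane is depolarized. Every receptor needs the GluN1 subunit, encoded by Grin1, and the GluN2 subunits, encoded by Grin2a to Grin2d, bind glutamate and set the kinetics of the channel. In forebrain GluN2B and GluN2D dominate before birth and GluN2A is added as synapses mature, GluN2C is best known from cerebellar granule cells, and GluN3A, encoded by Grin3a, lowers calcium entry in juvenile neurons.

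The genes differ greatly in size. In the mm9 mouse genome, all on the minus strand, Grin1 lies at chr2:25146701-25174707 and spans 28 kb, Grin2c lies at chr11:115110483-115128557 and spans 18.1 kb, and Grin2d lies at chr7:53087253-53126298 and spans 39 kb. The others are long genes. Grin3a lies at chr4:49674483-49858616 and spans 184.1 kb, Grin2a lies at chr16:9577803-9995014 and spans 417.2 kb, and Grin2b lies at chr6:135679844-136123529 and spans 443.7 kb. Their longest annotated transcripts cover a narrower range, from 4.28 kb for Grin1 to 7.48 kb for Grin2b and 7.49 kb for Grin3a. The opposite strand of Grin1 carries the noncoding Grin1os, all 7706 bases of which lie inside Grin1. The library kit is not one that marks the strand, so reads from the overlap cannot be assigned to Grin1 or Grin1os.

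Levels can be compared between members only in the count table, because the screen values are deviations from the median of each gene. That table held 4 vehicle and 4 pyraclostrobin libraries, numbered 1 to 4 here as their column names pair them, with 2409623 to 7833440 counts per library. Vehicle library 1 stood apart from the others. Its correlation with the other vehicle libraries was 0.928 to 0.937 on the log2 scale, while those others reached 0.992 among themselves. Genes with a transcript over 8 kb, 584 in number, lay at a median of -0.62 log2 units from their mean over the 8 libraries in vehicle library 1, and at 0.12 to 0.21 in the other vehicle libraries. Its summed astrocyte markers were 404 CPM (counts per 1000000 counts of the library) against 122 to 135. Pyraclostrobin library 1 stood apart from its group as well. It differed from the other pyraclostrobin libraries by 7.79 to 10.6 in chi-square per gene, where those differed by 1.82 to 2.98 among themselves, and its summed astrocyte markers were 1730 CPM against 386 to 482 CPM. The results that rest on the libraries numbered 1 are given below with and without them.

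Grin1 had the highest level per transcript length with vehicle, at 79.6 ± 8.12 CPM per kb (SD, n = 4), and every vehicle value of the other members lay below its lowest value of 68.1. Grin2b followed at 15 ± 9.79 CPM per kb, or 19.7 ± 3.44 without vehicle library 1 (SD, n = 3). Grin3a stood at 8.2 ± 2.1 CPM per kb, and its range overlapped that of Grin2b only through vehicle library 1. Grin2d stood at 3.71 ± 0.619 CPM per kb, below every Grin3a value, and Grin2a at 1 ± 0.657. Grin2c had 1, 0, 2 and 2 counts in the vehicle libraries, at or below a floor of 3 counts, and 6, 0, 2 and 2 counts with pyraclostrobin. It was therefore not tested. Grin2a rested on 1, 20, 44 and 35 counts in the vehicle libraries, and in vehicle library 1 it cannot be told from Grin2c at this depth.

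Vehicle library 1 was low in a subset of the members. Grin2b was at 7.13 CPM there, from 20 counts, against 143, 124 and 175 CPM in vehicle libraries 2, 3 and 4. Grin2a was at 0.357 CPM against 7.78, 5.93 and 5.25 CPM, and Grin3a at 38.2 CPM against 71.2, 65.2 and 71 CPM. Grin1, at 291 CPM against 341, 368 and 362 CPM, was the lowest of its group by a smaller margin, and Grin2d, at 17.5 CPM, lay inside the range of 17.1 to 23.7 CPM.

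In the screen the members fell into variable and steady genes. Over all 393 libraries the SD of the log2 deviation was 0.67 for Grin2b and 0.64 for Grin2a, against 0.30 for Grin2d, 0.25 for Grin3a and 0.20 for Grin1. Grin2a and Grin2b were the members that passed the study's cutoff for variably expressed genes, an SD of 0.1 on the log10 scale. Grin2a also varied most without any chemical, with an SD of 0.49 over the 49 vehicle libraries, which ran from -1.24 through a median of 0.24 to 1.34. Of the members in the screen, it had the lowest level with vehicle in the count table, a mean of 1 CPM per kb. The part of counting error at so low a level in the SD of Grin2a was not tested. The vehicle libraries of Grin2b ran from -0.56 through -0.02 to 1.36. The obligatory subunit gene Grin1 was tighter, from -0.34 through -0.04 to 0.82. Grin2d ran from -1.28 through -0.12 to 0.72 and Grin3a from -0.79 through -0.01 to 0.46.

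**Figure D1:**
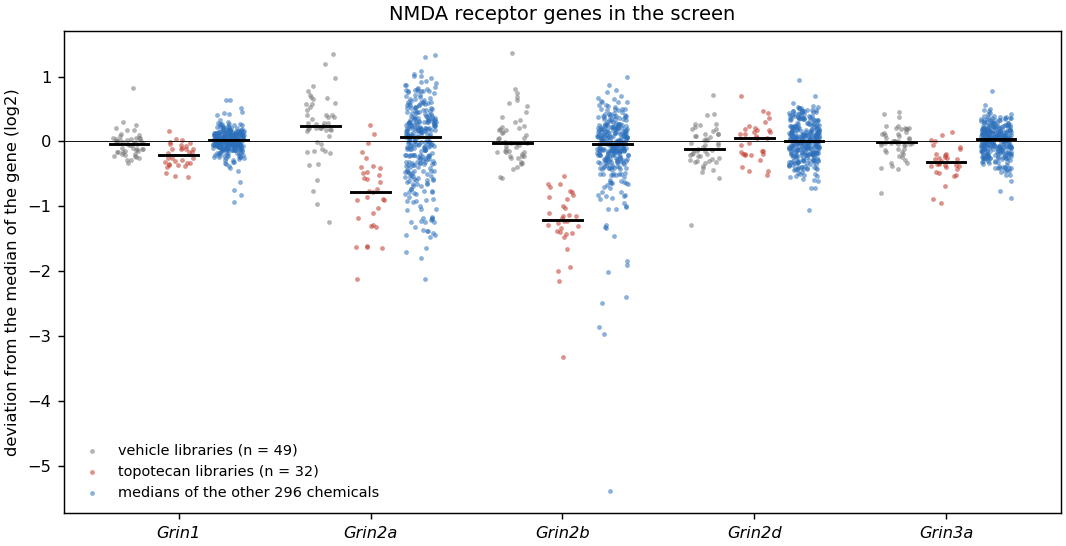
Deviation of each gene from its own median over the screen, in log2 units, for 49 vehicle libraries, 32 topotecan libraries and the medians of the other 296 chemicals, with a bar at the median of each set. Topotecan moved Grin2b almost wholly below the vehicle libraries, while the sets of Grin1, Grin2d and Grin3a overlap.

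Topotecan lowered 4 of the 5 members listed in the screen, and the long GluN2 genes fell most. The drug traps topoisomerase 1 on DNA and is known to impair transcription along long genes. For Grin2b the 32 topotecan libraries ran from -3.32 through a median of -1.20 to -0.54. Of these, 31 lay below the lowest vehicle library and 32 below the vehicle median, so the groups barely overlapped. Grin2b was lower by 1.32 log2 units, a drop to 0.401 of the vehicle level (log2 difference -1.32, SE 0.10, 95% confidence interval -1.52 to -1.12, limma, Benjamini-Hochberg adjusted p = 9.03e-20). Grin2a ran from -2.12 through -0.77 to 0.25 with topotecan. Although 31 of its 32 libraries were below the vehicle median, 8 were below every vehicle library. Its difference was -1.05 (SE 0.12, interval -1.28 to -0.81, limma adjusted p = 1.78e-12). The background was 20.9% of 13304 genes lower and 24.9% higher with topotecan.

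The other members moved little or did not pass. Grin3a ran from -0.95 through -0.31 to 0.14 with topotecan, with 2 libraries below all vehicle libraries, and its difference was -0.30 (SE 0.05, limma adjusted p = 3.5e-06). Grin1 ran from -0.55 through -0.21 to 0.16, with 8 libraries below all vehicle libraries, and its difference was -0.18 (SE 0.04, limma adjusted p = 0.000246), or 0.882 of the vehicle level. These are small shifts within broadly overlapping groups. Grin2d ran from -0.51 through 0.06 to 0.70, and its difference of 0.10 (SE 0.07, interval -0.04 to 0.23) did not pass (limma adjusted p = 0.251). Of the neuron markers, 7 of 8 were lower and 1 higher with topotecan, and 4 of 5 astrocyte markers were lower. Their part in the differences was not tested, and in bulk libraries fewer cells of a type and less RNA per cell cannot be told apart.

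**Figure D2:**
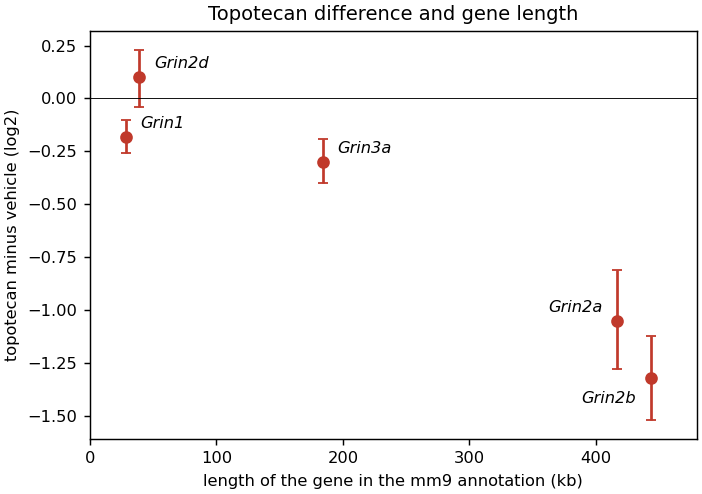
Topotecan minus vehicle difference in log2 units, with its 95% confidence interval from limma, against the length in kb of each gene in the mm9 annotation. The points for Grin2a and Grin2b, at 417.2 and 443.7 kb the longest of the 5, lie at -1.05 and -1.32, and Grin1 and Grin2d, at 28 and 39 kb, lie at -0.18 and 0.10.

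The response differed between members in 8 of 10 pairs (permutation test with 100000 resamples of the difference within each library, adjusted over the 10 pairs). The like share over pairs of other genes was not taken, so the count is not a result about the members. The response of Grin2b minus that of Grin3a was -1.02 log2 units (SE 0.11) and minus that of Grin2d -1.42 (SE 0.13), and the response of Grin1 minus that of Grin2b was 1.14 (SE 0.13), each with an adjusted permutation p of 1.43e-05 from 1e-05, the smallest these resamples can give. Grin1 minus Grin2a was 0.87 (SE 0.12) at that same p. Grin2a and Grin2b differed from each other by 0.27 (SE 0.15), which missed the threshold (adjusted permutation p = 0.0507), as did Grin1 and Grin3a, at 0.11 (SE 0.07, adjusted permutation p = 0.098). The order of response follows the order of gene length among the members with 1 exception, the shortest gene tested, Grin1, which was lower than Grin2d. With 5 genes this is a description.

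Camptothecin, the natural product from which topotecan is derived, was given at the same 0.3 µM and time in 1 library. Its values were -1.85 for Grin2b, -1.65 for Grin2a, -0.47 for Grin3a, -0.27 for Grin1 and -0.24 for Grin2d. Every member was thus lower than the topotecan median. With 1 library in an arm, whose spread was taken from the topotecan libraries, limma could detect only large differences, and its test settles neither a difference nor its absence. It called 0 of 5, and 0 of 5 had an unadjusted p under 0.05. Over the whole screen limma called 0 of 13304 genes, 0% in either direction, with 522 under 0.05 unadjusted. The comparison of camptothecin with topotecan left wide intervals, of -1.68 to 0.50 for Grin2b around -0.59 and of -1.95 to 0.29 for Grin2a around -0.83. Irinotecan, a camptothecin prodrug, was given at another dose, 10 µM, in 1 library. Its values were -1.05 for Grin2b, -0.85 for Grin2a, -0.10 for Grin3a, -0.13 for Grin1 and 0.01 for Grin2d.

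Partners of the receptor were described from lists chosen with earlier results of these data known. Of 15 genes for scaffold and auxiliary proteins, 9 were lower and 1 higher with topotecan, with a median of -0.21 where the median over all genes was 0.03. The background for each list was 20.9% of genes lower and 24.9% higher. The postsynaptic density genes Dlgap1 (-1.54, SE 0.06), Dlg2 (-1.23, SE 0.04), which encodes the PSD-93 scaffold, and Dlgap2 (-1.12, SE 0.09) fell most, and Dlg3, encoding SAP102, was slightly higher (0.10, SE 0.03). Of 16 genes for signalling enzymes near the receptor, 12 were lower and 2 higher, led by the guanine nucleotide exchange factor gene Kalrn (-1.12, SE 0.06), the calcium-responsive Ras exchange factor gene Rasgrf2 (-0.77, SE 0.06) and the calcineurin gene Ppp3ca (-0.69, SE 0.05). Rasgrf1 (0.44, SE 0.10) and Src (0.16, SE 0.03) were higher. Of 11 genes for glutamate and co-agonist supply, 3 were lower and 2 higher. The glial glutamate transporter genes Slc1a3 (-0.50, SE 0.05) and Slc1a2 (-0.38, SE 0.05) and the serine racemase gene Srr (-0.12, SE 0.02) fell, and the vesicular transporter genes Slc17a6 (0.58, SE 0.06) and Slc17a7 (0.12, SE 0.04) rose. The largest adjusted p among these named partners was 0.00497 by limma.

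With inhibitors of mitochondrial respiration Grin1 was called lower and Grin2b was not, but the genes were not tested against each other. Complex I inhibitors block the entry of electrons from NADH, and 4 were in the screen at 2 doses. Grin1 was at -0.63 with fenpyroximate and -0.45 with pyridaben at 0.1 µM, and at -0.29 with rotenone and -0.09 with tebufenpyrad at 0.01 µM. Against the other chemicals Grin1 was lower by 0.38 (log2 difference -0.38, SE 0.09, limma adjusted p = 0.00216), which made 1 of 5 members lower beside a background of 3.98% lower and 0.564% higher. Of the neuron markers, 4 of 8 were lower with these inhibitors and 0 higher, with a median of -0.28, 0 of 5 astrocyte markers were called, and 1 of 2 tested endothelial and mural markers was higher. Their part in the Grin1 difference was not tested. The call rested on fenpyroximate, without which the difference was -0.29 (limma adjusted p = 0.515). Grin2b had a difference of -0.06 (SE 0.31, interval -0.66 to 0.55) and Grin2a one of 0.06 (SE 0.30, interval -0.54 to 0.65). Each interval includes -0.38, the Grin1 difference.

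Inhibitors of the Qo site of complex III, the strobilurins and their functional relatives, lowered 2 of 5 members beside a background of 13.6% of genes lower and 7% higher. Their doses differed, so their values are set side by side and not compared with each other. For Grin1 the medians were -0.94 with pyraclostrobin and 0.04 with azoxystrobin, both at 0.1 µM, -0.33 with fluoxastrobin at 1 µM, and -0.83 with trifloxystrobin, -0.76 with fenamidone and -0.40 with famoxadone at 10 µM. Of the 6, azoxystrobin was the chemical near 0. The Grin1 difference from the other chemicals was -0.55 (SE 0.07, interval -0.69 to -0.42, limma adjusted p = 8.53e-13), and it stayed between -0.67 and -0.47 when any 1 of the chemicals was left out. Grin2d had a difference of -0.32 (SE 0.12, limma adjusted p = 0.0329). Its medians ran from -1.06 with pyraclostrobin, whose lone screen library is the one numbered 1 above, to 0.05 with azoxystrobin, and the difference was -0.17 (limma adjusted p = 0.458) without pyraclostrobin. The call was also lost without trifloxystrobin (-0.28, limma adjusted p = 0.143) or fenamidone (-0.35, limma adjusted p = 0.0514), and against the vehicle libraries (-0.14, limma adjusted p = 0.433). Grin2a was low with each of the 6, from -0.77 to -0.21, but its difference of -0.50 (SE 0.25, limma adjusted p = 0.153) did not pass. Against the vehicle libraries, which had a Grin2a median of 0.24, it was -0.80 and passed (limma adjusted p = 0.000134). Grin2b had a difference of -0.10 (SE 0.25, interval -0.59 to 0.40, limma adjusted p = 0.855), an interval that includes the Grin1 difference. Against the vehicle libraries Grin2b was at -0.28 (limma adjusted p = 0.107). Neuron markers moved with this set, 8 of 8 lower, as did 3 of 5 astrocyte markers, which were higher. Their part in the Grin1 and Grin2d differences was not tested.

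The partner genes of the Qo site set were 10 lower and 1 higher of 15 scaffold genes, 9 lower and 1 higher of 16 signalling genes, and 3 lower and 1 higher of 11 supply genes. The background was 13.6% of genes lower and 7% higher. Neto1, an auxiliary protein of NMDA and kainate receptors, was at -0.76 (SE 0.11), Shank1 at -0.51 (SE 0.08) and Dlgap3 at -0.39 (SE 0.07), while Dlg1 was at 0.28 (SE 0.09). Among signalling genes Rasgrf1 was at -0.94 (SE 0.20), Camk2a, the alpha subunit of calcium/calmodulin kinase II, at -0.47 (SE 0.06) and Nsmf, a synapse-to-nucleus messenger, at -0.45 (SE 0.05), while Camk2d was at 0.19 (SE 0.05). Among supply genes Slc17a7 was at -0.47 (SE 0.08), the neuronal transporter gene Slc1a1 at -0.39 (SE 0.05) and Slc1a3 at 0.23 (SE 0.09). Each of these passed limma's test, with adjusted p values of up to 0.0484. Complex I inhibitors gave 2 lower and 0 higher in each of the 3 lists, among them Shank1, Dlg3, Camk2a, Nsmf and Slc1a1. Their background was 3.98% of genes lower and 0.564% higher.

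Pyraclostrobin, a Qo site inhibitor given at 0.1 µM, was also sequenced in 4 libraries with counts deposited. Library 1 carries the same number as the pyraclostrobin library of the screen, so it is not separate evidence. The study describes fewer biological replicates than libraries for this experiment, so some libraries may share a culture, and p-values over 4 against 4 libraries may be too small. Grin1 stood at 94.2, 202, 146 and 180 CPM with pyraclostrobin in libraries 1 to 4, against 291, 341, 368 and 362 CPM with vehicle. The groups did not overlap, which among all tested genes held for 16.9% in the lower direction. Grin1 was at 0.457 of the vehicle level (log2 difference -1.13, SE 0.20, interval -1.58 to -0.68, edgeR quasi-likelihood adjusted p = 0.0015). It was the 1 member of 5 called, beside a background of 9.22% of 12324 genes lower and 12.1% higher. Grin1os, which cannot be separated from it here, had a difference of -1.16 (SE 0.19, edgeR adjusted p = 0.00075).

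**Figure D3:**
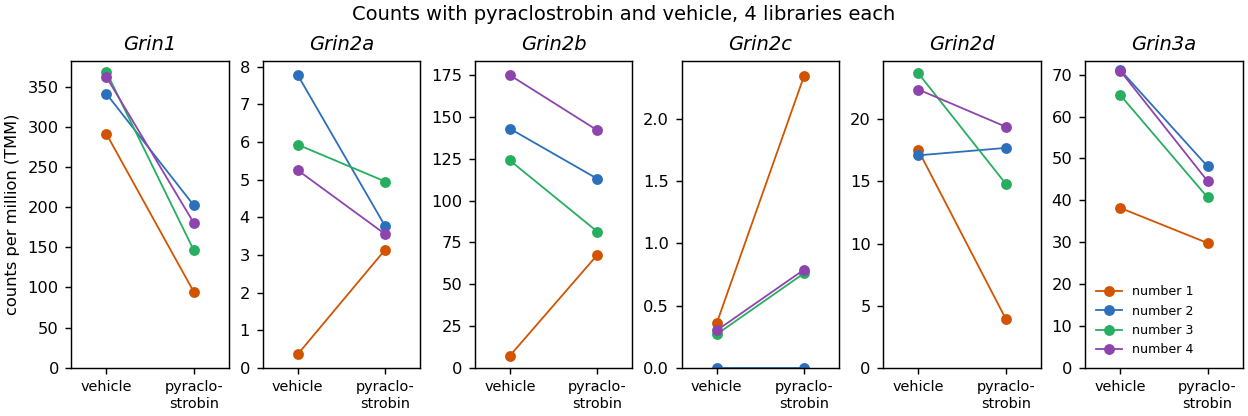
CPM after TMM scaling for 6 NMDA receptor genes in 4 vehicle and 4 pyraclostrobin libraries, each panel with its own axis from 0, lines joining libraries that share a number in their column names. Grin1 was lower with pyraclostrobin in each of the 4 numbers, and vehicle library 1 lay near 0 for Grin2a and Grin2b.

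Grin3a stood at 29.8, 48.1, 40.7 and 44.6 CPM with pyraclostrobin, against 38.2, 71.2, 65.2 and 71 CPM with vehicle. The groups overlapped through vehicle library 1, and the difference of -0.59 (SE 0.22) missed the threshold of 0.01 (edgeR adjusted p = 0.0524). Grin3a was lower with pyraclostrobin in each of the 4 numbers, and with the number as a replicate block the difference was -0.58 and passed (edgeR adjusted p = 0.00702). Leaving out both libraries numbered 1, a choice made after seeing the data, gave -0.63 (SE 0.11, edgeR adjusted p = 8.78e-05), and leaving out vehicle library 1 alone gave -0.76 (edgeR adjusted p = 0.00143). Grin1 was then at -1.02 (SE 0.09, edgeR adjusted p = 1.94e-08), so that 2 of 5 members were called without the libraries numbered 1, beside backgrounds of 20% lower and 19.8% higher.

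Grin2b stood at 67.5, 113, 81.4 and 142 CPM with pyraclostrobin, against 7.13, 143, 124 and 175 CPM with vehicle. The 4 pyraclostrobin libraries lay within the vehicle range, and the difference of -0.17 (SE 0.59, interval -1.46 to 1.13, edgeR adjusted p = 0.854) did not pass. Without vehicle library 1 alone it was -0.55, and without both libraries numbered 1 it was -0.40 (SE 0.14, edgeR adjusted p = 0.0286), which did not pass 0.01. Grin2d stood at 3.92, 17.7, 14.8 and 19.4 CPM against 17.5, 17.1, 23.7 and 22.4 CPM. Library 1 was the low one with pyraclostrobin, and the difference was -0.55 (SE 0.35, edgeR adjusted p = 0.254), or -0.32 (SE 0.18, edgeR adjusted p = 0.146) without the libraries numbered 1. Grin2a, at 3.14, 3.76, 4.95 and 3.55 CPM from 8 to 13 counts, had a difference of -0.36 (SE 0.52, interval -1.49 to 0.78, edgeR adjusted p = 0.637). Without vehicle library 1 alone the Grin2a difference was -0.67 (edgeR adjusted p = 0.0691). Without both libraries numbered 1 it was -0.56 (SE 0.31, edgeR adjusted p = 0.138). None of these passed 0.01 at this depth.

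Cell type markers moved with pyraclostrobin. The sum of 8 neuron markers was 6759 to 7208 CPM with vehicle and 2911 to 3797 CPM with pyraclostrobin, with 5 of 8 lower and 0 higher. No neuron marker was at 0 in any library, and no astrocyte marker either, so detection alone does not measure the share of neurons. Grin1 per 1000 CPM of summed neuron markers was 32.4, 54.7, 45.4 and 47.5 with pyraclostrobin, against 43.1, 47.3, 52.2 and 51.1 with vehicle, so on that scale the groups overlapped. Grin2b per 1000 CPM of neuron markers was 23.2, 30.6, 25.4 and 37.3 with pyraclostrobin, against 1.06, 19.8, 17.6 and 24.7, and Grin3a was 10.2, 13, 12.7 and 11.8 against 5.65, 9.88, 9.26 and 10. On that scale the lowest pyraclostrobin value of Grin3a, 10.2, lay just above the highest vehicle value, 10, while in CPM the groups overlapped. The summed markers were themselves lower with pyraclostrobin, and the share of all genes that separate on that scale was not taken. Neither overlap nor separation on it is therefore a result about the members. Summed astrocyte markers were 386 to 1730 CPM with pyraclostrobin against 122 to 404 CPM, with 1 of 5 higher and 5 of 5 without the libraries numbered 1. Microglia markers were 52.2 to 84.9 CPM against 13.7 to 20.6 CPM, with 4 of 4 tested higher. Endothelial and mural markers were 579 to 792 CPM against 32.2 to 84.5 CPM, through the smooth muscle actin gene Acta2, while the endothelial Cldn5 was at 0 in 8 of 8 libraries. The part of these shifts in the Grin differences was not tested.

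The partners gave 4 lower and 0 higher of 14 tested scaffold genes, 7 lower and 0 higher of 16 signalling genes, and 3 lower and 0 higher of 11 supply genes with pyraclostrobin. Without the libraries numbered 1 these were 11 lower and 1 higher, 11 lower and 0 higher, and 5 lower and 2 higher. The background rose as well. It was 9.22% of all tested genes lower and 12.1% higher with every library, and 20% lower and 19.8% higher without those numbered 1. Shank1 (-1.25, SE 0.29), Dlgap3 (-0.90, SE 0.18) and Dlg3 (-0.52, SE 0.11) were among the scaffold genes that fell, Camk2a (-1.40, SE 0.14), Nsmf (-1.21, SE 0.14) and Camk4 (-1.02, SE 0.17) among the signalling genes, and Slc17a7 (-1.58, SE 0.17) and Slc1a1 (-0.69, SE 0.14) among the supply genes. Their edgeR adjusted p values were at most 0.00595. The medians of the 3 lists were -0.47, -0.53 and -0.26, where the median over all tested genes was 0.00.

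Pyrethroids, which hold sodium channels open, called 0 of 5 members over 12 chemicals, beside a background of 0.195% lower and 0.256% higher. With an unadjusted p under 0.05 there was 1 member, Grin1, at 0.17 (SE 0.05, limma adjusted p = 0.0929). Its medians ran from -0.22 with esfenvalerate to 0.64 with fenpropathrin. Without esfenvalerate the Grin1 difference was 0.21 and passed (limma adjusted p = 0.0273). The intervals of the other members were -0.11 to 0.59 for Grin2a, -0.31 to 0.40 for Grin2b, -0.09 to 0.24 for Grin2d and -0.21 to 0.06 for Grin3a.

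The study sorted 34 of the 297 chemicals into 6 clusters on the variably expressed genes of this same table, so the members' values in them are described with no test. It also reports RNA integrity numbers that were lower for clusters 2 and 6, while judging the quality of every cluster high enough. Their part in the values below was not tested. Cluster 6, of 7 chemicals with 1 library each, held the lowest Grin2b values, from -5.39 with metsulfuron through a median of -2.49 to -1.31 with thiophanate. Grin2a ran there from -1.47 to -0.55 and Grin3a from -0.51 to -0.19, while Grin1 stayed between -0.05 and 0.11 and Grin2d between 0.01 and 0.37. In cluster 5, the topoisomerase inhibitors, Grin2b ran from -1.85 to -1.05. Cluster 2, which holds most of the respiration inhibitors, was the cluster of low Grin1, from -0.94 to -0.29 in 7 of its 8 chemicals and at 0.15 with oxyfluorfen. Cluster 1 went the other way for Grin1, from 0.05 with imazalil to 0.64 with fenpropathrin, and lower for Grin3a, from -0.46 to -0.11. Neither trait was particular to cluster 1. In cluster 3 Grin1 ran from 0.04 to 0.64. The Grin3a median was -0.26 in cluster 1, -0.30 in cluster 2, -0.31 in cluster 5 and -0.32 in cluster 6.

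**Figure D4:**
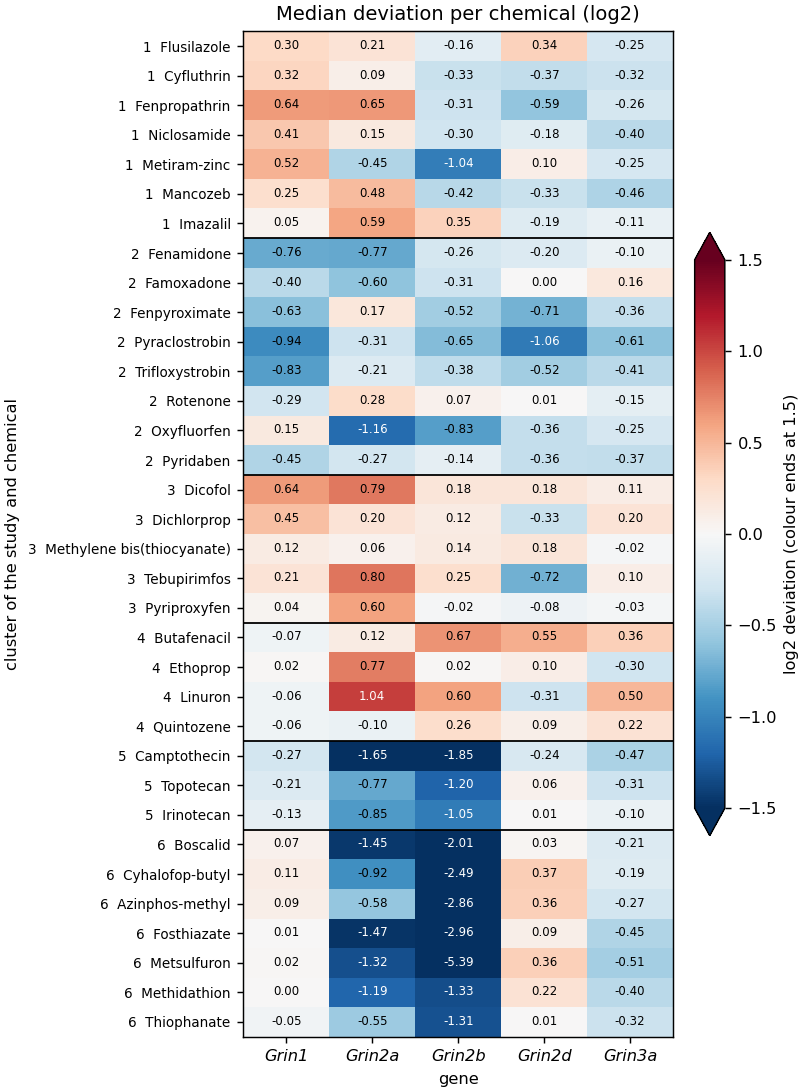
Median log2 deviation per chemical of 5 NMDA receptor genes (columns) for the 34 chemicals of the study's clusters 1 to 6 (rows), with the value printed in each cell and the colour scale ending at 1.5 in either direction. Low Grin2b marks clusters 5 and 6, low Grin1 marks most of cluster 2, and Grin2d is near 0 or above in cluster 6.

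Against the lowest and highest vehicle library, Grin2b was the member most often outside the range over the 297 chemicals, an order that turned when 2 SD around the vehicle mean was the limit, with 39 chemicals below for Grin2a and 28 for Grin2b. By the range, the median of 37 chemicals (12.5%) lay below the lowest of 49 vehicle libraries and 0 above the highest, where the mean over all genes was 2.69% below and 2.07% above, and 222 genes had at least as many chemicals below. Of the 37, 7 were in cluster 6, 3 in cluster 5, 2 in cluster 2, 1 in cluster 1 and 24 in no cluster. Grin2a had 14 chemicals (4.71%) below and 0 above. Grin1 had 8 (2.69%) below, 6 of them in cluster 2, and 0 above, so its share below was that of all genes. Grin3a had 1 (0.337%) below and 4 (1.35%) above, and Grin2d 0 below and 1 (0.337%) above. Some limits rest on 1 far vehicle library. The lowest was -1.28 for Grin2d, with the next at -0.57, and -0.79 for Grin3a, with the next at -0.42. The highest for Grin1 was 0.82, with the next at 0.30. With the limit of 2 SD, 3 chemicals lay below for Grin2d and 5 for Grin3a. The share over all genes was not taken at that limit. A member lay outside the range for 53 chemicals. The like count for other sets of genes was not taken, so this one is not a result about the members. Most rest on 1 library, so no chemical was tested alone.

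The extremes differed by member, and doses are as the labels give them. Grin2b was lowest with metsulfuron (-5.39), fosthiazate (-2.96) and azinphos-methyl (-2.86), and highest with bendiocarb (0.99), malathion (0.87) and MCPA (0.79), all at 10 µM. Grin2a was lowest with spiroxamine (-2.12) and acibenzolar-S-methyl (-1.71) at 10 µM and with fentin (-1.79) at 0.01 µM, and highest with profenofos (1.33), dimethyl phthalate (1.30) and cyclanilide (1.08) at 10 µM. These highs lay inside the vehicle maximum of 1.34. Grin1 was lowest with pyraclostrobin (-0.94), trifloxystrobin (-0.83) and fenamidone (-0.76), the Qo site inhibitors above, and highest with dicofol (0.64), fenpropathrin (0.64) and metiram-zinc (0.52) at 10 µM. Grin2d was lowest with pyraclostrobin (-1.06), tebupirimfos (-0.72) and fenpyroximate (-0.71), and highest with d-cis,trans-allethrin (0.95) at 1 µM and with spirodiclofen (0.70) and profenofos (0.59) at 10 µM. Grin3a was lowest with etoxazole (-0.88) at 10 µM, emamectin benzoate (-0.77) at 1 µM and pyraclostrobin (-0.61), and highest with dibutyl phthalate (0.78), flumetsulam (0.57) and linuron (0.50) at 10 µM.

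Chemicals with repeats gave the spread between libraries of the same chemical and dose. Between the libraries of the 13 chemicals with 2, Grin1 differed by a median of 0.16 and at most 0.61, Grin3a by 0.20 and at most 0.89, Grin2d by 0.36 and at most 1.22, Grin2a by 0.48 and at most 1.32, and Grin2b by 0.52 and at most 1.76. Grin2b with clopyralid was 0.04 in one library and -1.73 in the other, with Grin2a at 0.50 and -0.79. The repellent diethyltoluamide had 4 libraries, with Grin2b at -0.44, 0.25, 0.03 and -2.91 and Grin2a at -0.86, 0.21, -0.10 and -1.73. Its Grin1 values were -0.12, 0.17, 0.26 and 0.09. A Grin2b value as low as those of cluster 6 thus occurred in 1 of 4 libraries of the same chemical and dose.

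Grin2b moved with genes that have long transcripts, a relation examined after seeing the data. The measure was the median deviation of 601 genes with a transcript over 8 kb, the members not included, in each library. No such measure was made from the span of genes. The longest transcripts of Grin2b and Grin3a, at 7.48 and 7.49 kb, are alike, and that of Grin2a is shorter, at 4.82 kb. The correlations below do not follow the order of these lengths. Over the 49 vehicle libraries Grin2b correlated with it at Pearson's r = 0.83 and Spearman's rho = 0.77 (permutation p = 1e-05 for each, the smallest 100000 resamples can give, adjusted over 10 relations 2.5e-05 and 3.33e-05), and at r = 0.75 without the 2 libraries farthest from the median. Grin2a followed at r = 0.57 and rho = 0.47 (adjusted permutation p = 8e-05 and 0.00212, r = 0.44 without 2), and Grin3a at r = 0.31 and rho = 0.35 (adjusted permutation p = 0.0493 and 0.0239, r = 0.26 without 2). Grin1 (r = 0.25, rho = 0.23, adjusted permutation p = 0.127 and 0.169, r = 0.17 without 2) and Grin2d (r = 0.13, rho = 0.10, adjusted permutation p = 0.454 and 0.621, r = 0.13 without 2) did not pass. Over the 263 chemicals in no cluster Grin2b was at r = 0.80 and rho = 0.76 (r = 0.77 without 2), Grin2a at r = 0.49 and rho = 0.40 (0.44 without 2) and Grin3a at r = 0.31 and rho = 0.27 (0.27 without 2), with adjusted permutation p of at most 5e-05. Grin1 (r = -0.01, rho = -0.03) and Grin2d (r = 0.01, rho = 0.00) lay near 0, at adjusted permutation p of 0.72 to 0.939.

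The same measure was low where Grin2b was low. It ran from -0.42 to -0.20 in cluster 6, from -0.27 through a median of -0.11 to -0.01 in the topotecan libraries, and from -0.14 through 0.01 to 0.28 in the vehicle libraries. In the diethyltoluamide library with Grin2b at -2.91 it was -0.19, and in the others -0.08, 0.00 and 0.00. Vehicle library 1 of the count table, with the low Grin2b, had the low value for long transcripts given above. With the trend over transcript length taken out of every library, the topotecan difference of Grin2b was -1.18 in place of -1.32. In the low diethyltoluamide library Grin2b was then at -2.75 in place of -2.91, and 36 chemicals in place of 37 lay below the vehicle range. That step takes out only a trend common to all genes. It therefore cannot tell what part shifts of a whole library have in low Grin2b, which was not tested.

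**Figure D5:**
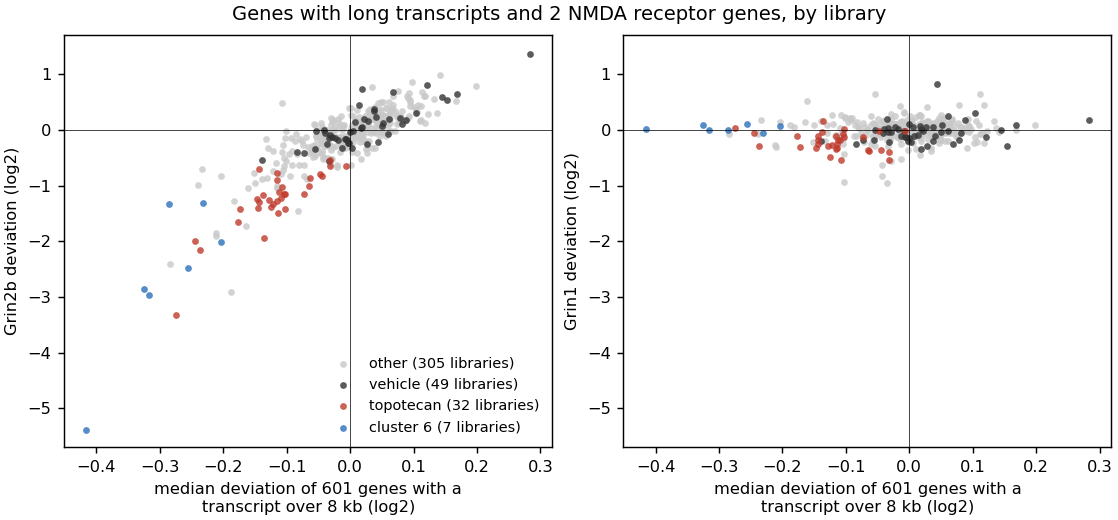
Log2 deviation of Grin2b (left) and Grin1 (right) against the median log2 deviation of 601 genes with a transcript over 8 kb, 1 point per library, coloured for 49 vehicle, 32 topotecan, 7 cluster 6 and 305 other libraries. Grin2b falls with the long transcripts in each set, and most topotecan libraries lie below vehicle libraries at a like value on the horizontal axis. Grin1 runs from -0.95 to 0.82 over all 393 libraries.

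Members were also compared with each other. Among 20 relations, 10 over vehicle libraries and 10 over the 263 chemicals in no cluster, 5 passed with Pearson's r and 3 with Spearman's rho. These counts have no like share over pairs of other genes beside them, so they are not a result about the members. Grin2a and Grin2b went together over the vehicle libraries at r = 0.41 (adjusted permutation p = 0.016, r = 0.32 without the 2 farthest libraries), although rho was 0.34 and did not pass (adjusted permutation p = 0.0822). Over the chemicals they were at r = 0.50 and rho = 0.41 (adjusted permutation p = 0.0001 for each, r = 0.43 without 2). Grin2b and Grin3a were at r = 0.31 and rho = 0.30 over the chemicals (adjusted permutation p = 0.0001 for each, r = 0.28 without 2), Grin1 and Grin2d at r = 0.18 and rho = 0.17 (0.016 and 0.0394, r = 0.18 without 2), and Grin2a and Grin3a at r = 0.19 and rho = 0.14 (0.0129 and 0.0943, r = 0.16 without 2). Grin1, whose product joins every GluN2 subunit in a receptor, was at r = 0.03 with Grin2b and r = 0.15 with Grin2a over the chemicals, neither of which passed. With the transcript length trend taken out, 2 relations passed, Grin2a with Grin2b at 0.47 and Grin1 with Grin2d at 0.19 over the chemicals.

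The genes whose medians over the 297 chemicals were most like those of each member are given as a description, since all share the same libraries. For Grin1 they were its overlapping partner Grin1os (Spearman's rho 0.85), Dos (0.57) and the mitochondrial glutamate carrier gene Slc25a22 (0.55). Grin2b was most like Xkr4 (0.82), Tmem178b (0.79) and Apc (0.77), and Grin2a like Xkr4 (0.51), Pclo (0.50) and Tmem178b (0.50), so the pair shared 2 of their 3 leading genes. Xkr4 spans 465.6 kb, close to the length of Grin2a and Grin2b. Grin3a was most like the protocadherin gene Pcdh19 (0.58), the adhesion gene Chl1 (0.57) and the adenylyl cyclase gene Adcy1 (0.57). Grin2d had no close companion, with Lmtk3 (0.35), Speg (0.35) and Gpr27 (0.34) at its head. With the length trend taken out, Xkr4 kept a rho of 0.81 with Grin2b, while Apc dropped to 0.42.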

How the data were processed

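Per the study's methods and the labels, polyadenylated RNA was made into libraries with the TruSeq RNA kit, reads were filtered with TagDust and aligned to mm9 with TopHat, and ribosomal reads were removed. For the screen, the authors deposited log10 RPKM values over RefSeq genes, after keeping genes above 0 in most samples, quantile normalization, centring on the median of each gene and a mixed-model correction for batches of cultures and of sequencing. These values are deviations without level or depth. They can shrink real differences tied to a batch, and no pseudocount applies. They were converted here to log2. For pyraclostrobin the authors deposited raw read counts over RefSeq exons, not normalized. A second count table, for sulforaphane before fenamidone, has 6 columns whose names do not match samples in the labels, so these 6 columns were not used and that planned comparison was not run.

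Screen comparisons used limma 3.58.1 in R 4.3.3 with a variance trend, over 13304 genes, with Benjamini-Hochberg adjustment and a threshold of 0.05. Sets of chemicals were compared as medians per chemical with all other chemicals. The lone camptothecin library was assumed to vary like the topotecan libraries. Counts used edgeR 4.0.16 with its quasi-likelihood test, TMM scaling, at least 10 counts in at least 4 libraries (12324 genes) and a threshold of 0.01. DESeq2 1.42.0, other scalings, filters, thresholds and left-out libraries were alternatives, and fits were tested on simulated data. Gene positions and longest transcripts came from the GENCODE annotation of mm9, which matched 12388 (93.1%) of the screen genes. The pairing of the numbers in the count columns was checked by correlating deviations from group means, which gave 0.376, 0.102, -0.0287 and 0.161. Libraries of a group differed by 1.82 to 26 in chi-square per gene, more than sampling noise, so none was counted as a repeat. Counting floors cover counting error only. The members and gene lists were chosen with earlier results of these data known. Named partners are those called, at most 3 per direction and list by size of difference, with 1 gene of the supply list not reported here by name, named chemicals are the 3 lowest and 3 highest medians, and like genes are the 3 with the highest Spearman correlation.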

Additional observations from a re-analysis of the deposited data

Results flagged for a closer look

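In the count table, 17 groups of 4 libraries were screened for a library far from the others, by the gap to its nearest neighbour as a share of the group's range, against Dixon's 95% critical value. Chance passes about 1 group in 20. Vehicle library 1 was the far one in 3 groups, all of them low: Grin2b with a share of 0.891 at 2.93, Grin3a with 0.858 at 5.27, and Grin2a with 0.839 at -0.22. These are log2 values of CPM after a small constant was added, which raises the low Grin2a value most. The genes share this library, so the 3 are not separate events. That library also had low long transcripts and high astrocyte markers, whose part in these values was not tested. No pyraclostrobin group of a member passed.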

How the results depend on the processing

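The count of topotecan calls among the members was 2 with only the 2 variably expressed members tested, where fewer genes enter, and 4 or 5 otherwise. Pyraclostrobin called 2 of 5 in place of 1 with the replicate block, without both libraries numbered 1, or with the length trend removed, and 1 to 2 when 1 library was left out. The correlation of deviations was over 0.1 in 3 of the 4 numbers, so the check did not settle whether the numbers pair the samples. The block raised the calls over all genes from 2631 to 3135, with Grin3a at -0.58 (edgeR adjusted p = 0.00702) and Grin2b reversed to 0.15 (edgeR adjusted p = 0.823). Leaving out 1 library moved Grin2b from -0.55 to 0.13. Complex I inhibitors called 0 with variable genes only and 0 to 1 when a chemical was left out, and Grin2a reversed to -0.16 against vehicle libraries. Its range without 1 chemical was -0.03 to 0.15, that of Grin2b -0.14 to 0.06 and that of Grin2d -0.36 to 0.05. Qo site inhibitors called 0 with variable genes only, 1 at a threshold of 0.01, and 1 to 2 when a chemical was left out. Pyrethroids called 0 to 1 when a chemical was left out, Grin2a reversed to -0.04 and Grin2b to -0.15 against vehicle libraries, and Grin2d ran from 0.00 to 0.14. The topotecan difference between Grin1 and Grin3a was 0.16 by medians (adjusted permutation p = 0.0158) and reversed to 0.00 with the length trend removed, where Grin2d passed at 0.17 (limma adjusted p = 0.0335). Correlated pairs numbered 3 with Spearman and 2 with the length trend removed, in place of 5. Causes were not tested beyond what each alternative's construction shows. The count of chemicals with a member outside the vehicle range was 53, 72 with 2 SD, 53 with the first library and 57 with the length trend removed.

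Over all genes, topotecan called 6090, or 1788 with variable genes only. Complex I inhibitors called 605, but 53 with variable genes only, 281 at 0.01, 1324 against vehicle libraries and 4 to 1019 when a chemical was left out. Qo site inhibitors called 2736, but 467 with variable genes only and 1751 to 3238 when a chemical was left out. Pyrethroids called 60, but 10 with variable genes only, 3 at 0.01, 469 against vehicle libraries and 1 to 219 when a chemical was left out. Pyraclostrobin called 2631, 1495 higher and 1136 lower, but 4301 at 0.05, 4773 without the libraries numbered 1 and 1682 to 4052 when 1 library was left out. The length trend removed gave 1412 higher and 2127 lower and moved the median of all genes to -0.13. The sulforaphane comparison and its alternatives were not run. Length trend removal and leaving out the libraries numbered 1 were chosen after seeing the data. Depth limits Grin2a and Grin2c in the counts, and most chemicals have 1 library.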
